A study of Mus musculus with 17 samples.

Results

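Transcript levels of 10 genes that build, load and export very low-density lipoprotein (VLDL) or encode the apolipoproteins on its surface were followed in livers and tumors of mice lacking NgBR in hepatocytes. The members were taken by gene symbol alone: Apob, Mttp, Tm6sf2, Sar1b, Cideb, Surf4, Apoa1, Apoa4, Apoc3 and Apoe. All 10 were listed among the 19151 genes of the high-fat diet (HFD) table and the 24233 genes of the Western diet (WD) table, and all 10 passed the filter on low counts in every fit.

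The liver packages triglyceride into VLDL inside the endoplasmic reticulum (ER) and secretes it, and a block in this route leaves fat in the hepatocyte. Microsomal triglyceride transfer protein adds lipid to nascent apolipoprotein B, further lipid is added in the secretory pathway, and COPII-coated carriers take the particle out of the ER. The exchangeable apolipoproteins then govern how the particle is hydrolyzed and cleared in plasma.

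RNA-seq had been performed on 17 samples from male mice on the C57BL6 background. N-LKO mice carried a loxP-flanked NgBR (Nus1) allele deleted by Cre recombinase driven from the albumin promoter, which is active in hepatocytes; controls were labelled WT, and whether they carried loxP alleles was not stated. Mice raised on chow received HFD for 16 weeks (4 WT and 4 N-LKO livers) or WD, a fat- and cholesterol-rich diet, for 16 weeks (3 WT livers, 3 N-LKO livers and 3 tumors of N-LKO mice). Whether tumors and N-LKO livers came from the same animals was not stated. The labels call the libraries biological replicates of a group.

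The libraries held 9096110 to 12215784 counts under HFD and 15494731 to 20200618 under WD. Nus1, the deleted gene, ranged from 82.5 to 96.2 CPM (counts scaled to library size) in WT and from 29.4 to 38.0 CPM in the N-LKO group under HFD. Under WD Nus1 ranged from 88.2 to 98.9 CPM in WT livers, 41.7 to 51.1 CPM in the N-LKO group and 28.99 to 43.99 CPM in tumors, so no N-LKO sample overlapped the WT livers of its diet. Hepatocyte markers were high in every library, with 10 of 10 above 0 throughout. Among the tumors, replicate 2 stood apart for the members: they took 2.77% of its counts, against 4.61% in tumor replicate 1 and 4.05% in tumor replicate 3 and 4.45% to 4.66% in the 6 WD livers. Under HFD the share was 3.01% to 3.27% in WT and 3.35% to 3.53% in N-LKO livers.

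The 10 genes differ widely in level. Per kilobase of the main transcript, Apoe stood highest in every group, followed by Apoa1, whose range overlapped that of Apob in tumors. In WT livers under HFD the levels were 11155 ± 538 CPM per kb for Apoe and 5451 ± 700 CPM per kb for Apoa1 (SD, n = 4). Apoc3 came next at 1204 ± 167 CPM per kb, then Apob at 602 ± 65.6 CPM per kb and Apoa4 at 495 ± 218 CPM per kb, and the ranges of Apob and Apoa4 overlapped. The genes of lipid loading and export were lower: Cideb, Sar1b and Mttp lay between 100 and 129 CPM per kb with overlapping neighbours, Surf4 at 60.0 ± 7.66 and Tm6sf2 at 6.16 ± 0.743 CPM per kb. In WT livers under WD Apob ranked above Apoa4 and Apoc3, at 1761 ± 204 CPM per kb (SD, n = 3). Levels are compared here only within a table, since diet and table cannot be told apart.

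**Figure D1:**
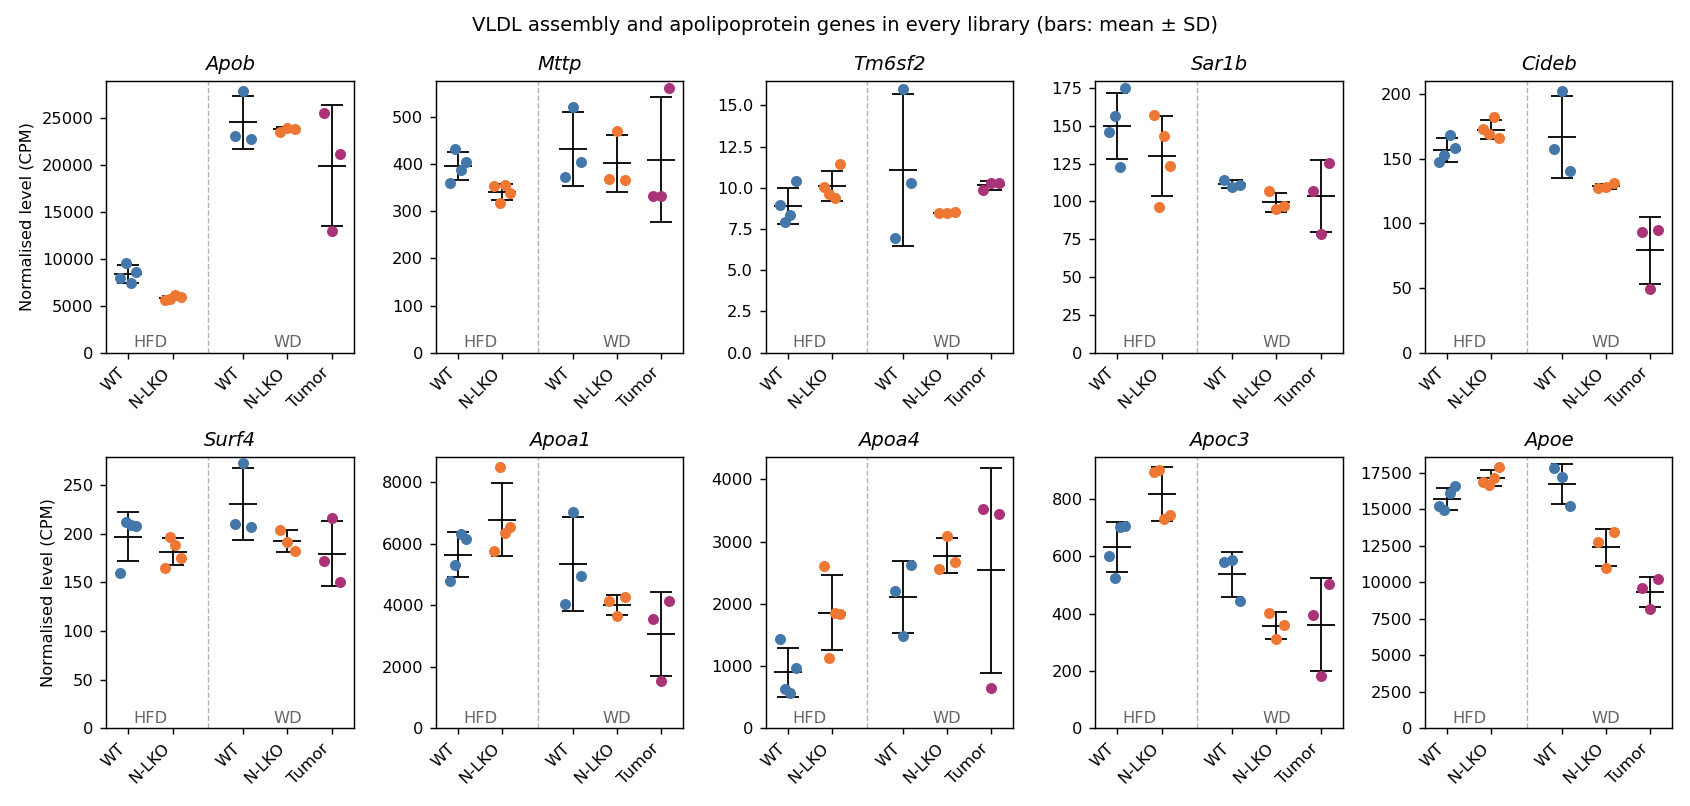
Level of each of the 10 genes in every library, in CPM on a linear axis that starts at 0; points are libraries, black bars the group mean ± SD, and the dashed line separates the HFD from the WD table. Apob is lower in all 4 N-LKO HFD livers (5595 to 6138 CPM) than in any WT HFD liver, and Apoe descends from WT liver through N-LKO liver to tumor under WD.

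The upstream sequences of 4 genes are shown because they precede members whose levels the comparisons turn on: Apob, Cideb and Apoe, which passed the test in a comparison, and Apoa4, which had the largest fold change under HFD. Each run ends at the base before the more upstream of the RefSeq and GENCODE gene starts, reads 5′ to 3′ on the strand of the gene, and comes from RefSeq (build GRCm38.p6). Capitals mark CAAAGT, a core of sites for the nuclear receptor HNF4, on either strand.
Apob (chr12:7977427-7977647, plus strand): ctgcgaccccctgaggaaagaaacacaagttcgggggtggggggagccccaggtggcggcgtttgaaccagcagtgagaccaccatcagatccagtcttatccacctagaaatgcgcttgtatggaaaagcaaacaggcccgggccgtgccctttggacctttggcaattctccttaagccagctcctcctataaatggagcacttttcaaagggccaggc
Cideb (chr14:55758459-55758674, minus strand): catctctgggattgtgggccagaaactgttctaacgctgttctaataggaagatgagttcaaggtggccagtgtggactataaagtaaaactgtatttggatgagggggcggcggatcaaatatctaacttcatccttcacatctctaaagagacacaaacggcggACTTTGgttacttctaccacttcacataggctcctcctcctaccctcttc
Apoa4 (chr9:46240594-46240695, plus strand): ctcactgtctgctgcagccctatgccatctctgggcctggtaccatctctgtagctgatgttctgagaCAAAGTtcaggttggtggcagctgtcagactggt
Apoe (chr7:19699189-19699438, minus strand): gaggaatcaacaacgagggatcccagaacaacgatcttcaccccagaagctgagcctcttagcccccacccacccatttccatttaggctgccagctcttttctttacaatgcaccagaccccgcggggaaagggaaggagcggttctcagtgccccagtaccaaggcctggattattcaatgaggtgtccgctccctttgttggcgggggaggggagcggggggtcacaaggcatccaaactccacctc

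In the 250 bases before the RefSeq start, which were available for 8 of the 10 members, CAAAGT was found in 3 (Sar1b, Cideb and Apoa4), and 12.6% of 32817 windows of the same length held it. Cideb held it at 2 places, starting 84 and 33 bases before the RefSeq start, of which the first is inside the run shown. AGGTCA, a string bound by many nuclear receptors, was found in 0 of the 8, against 14.03% of windows. Both motifs were searched on both strands; they share the letters CA and can overlap. Apob and Apoe, both shown above, held neither string, and nothing follows from this about any factor.

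Under HFD the knockout was compared with WT liver to ask whether transcripts of the VLDL route differ when NgBR is absent. Apob alone passed the test and was lower in N-LKO livers. By edgeR's quasi-likelihood test 1 of 10 members had an adjusted p under 0.05, where 4.84% of the 13460 genes tested did (652 genes) and 2.29% did as lower. At a looser limit, 4 members had an unadjusted p under 0.05, against 22.7% of genes. For 4 members the groups did not overlap, Apob and Mttp lower and Apoc3 and Apoe higher in N-LKO livers, against 14.8% of genes. The median log2 fold change of the 10 members was 0.13, beside −0.0058 over all genes tested. In bulk tissue, fewer cells of a type and less RNA per cell cannot be told apart.

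Apob encodes the structural protein that stays with each VLDL particle from assembly to uptake. It lies on chromosome 12 from 7977648 to 8016835 of GRCm38 on the plus strand, and the main annotated form has 29 exons over 13934 bases. Apob stood at 7994, 9550, 7407 and 8592 CPM in the 4 WT livers and at 5595, 5680, 6138 and 5921 CPM in the 4 N-LKO livers. All N-LKO livers were below all WT livers, and they also spread less. The log2 fold change was −0.52 (SE 0.11, 95% interval −0.76 to −0.29), which leaves Apob at 0.696 of the WT level, with an adjusted p of 0.0220 by edgeR. An offset for transcript length and GC content brought Apob to −0.31 (adjusted p 0.120), and it also missed the threshold without WT replicate 2 or 4 or N-LKO replicate 1, 3 or 4 (adjusted p 0.05005 to 0.0616). With each library left out the log2 fold change ran from −0.58 to −0.46. The DESeq2 test and limma-voom called Apob (adjusted p 1.058e-05 and 0.0166). Its counts were fractional in all 8 HFD libraries, so part of its reads had been divided between features.

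Long transcripts as a class had lower fold changes under HFD. With genes divided into 10 bins by length, the median log2 fold change was 0.22 in the bin of the shortest transcripts, which held Apoc3, and −0.19 in the bin of the longest, which held Apob. Of the 270 genes with transcripts of at least 10000 bases, whose median was −0.20, 10% had a lower fold change than Apob. Under WD the bin medians ran the other way and were smaller, from −0.09 to 0.07.

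**Figure D2:**
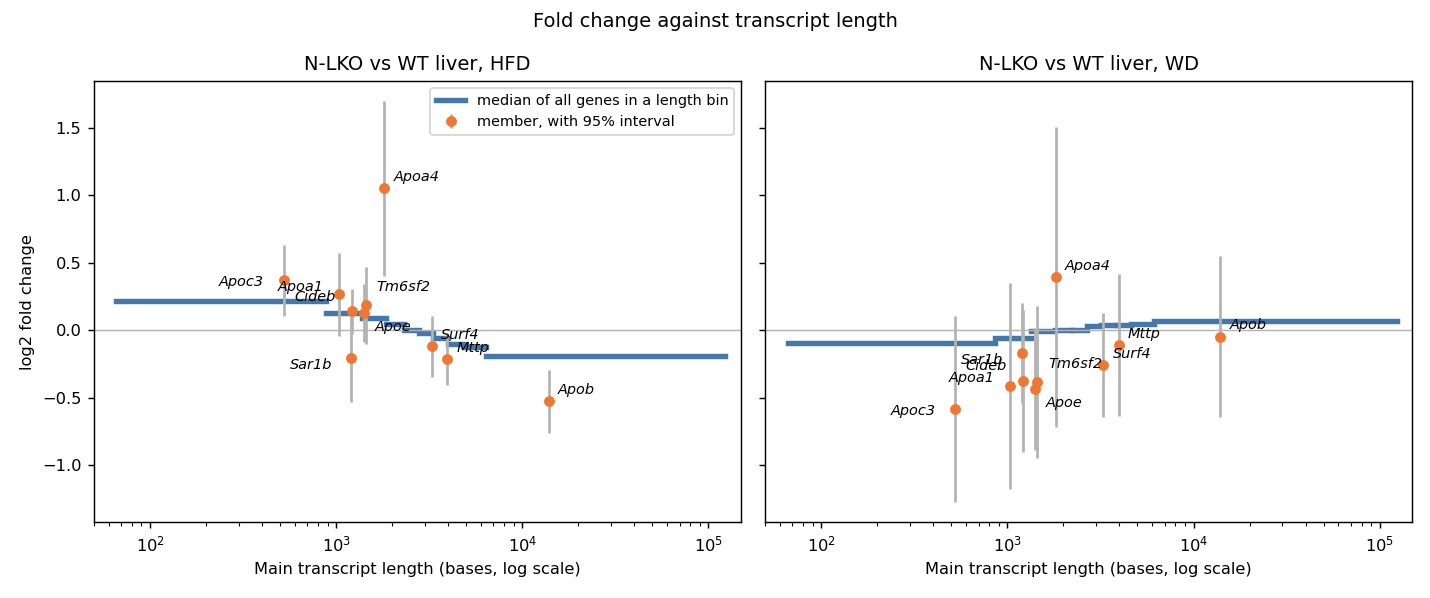
Log2 fold change of N-LKO against WT liver (vertical axis) against the length of the main transcript in bases (log scale) under HFD and WD; orange points with bars are the 10 genes with their 95% intervals, and blue lines the median of all genes in each of 10 length bins. Under HFD the blue medians fall from 0.22 to −0.19 and Apob, at 13934 bases, lies below the last of them at −0.52.

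Mttp, the lipid transfer protein that loads ApoB, and Tm6sf2, an ER and Golgi protein required for full lipidation, did not pass under HFD. Mttp ranged from 361 to 433 CPM in the WT group and from 318 to 356 CPM in the N-LKO group, which did not overlap, with a log2 fold change of −0.22 (SE 0.085, adjusted p 0.155 by edgeR). Tm6sf2 was the lowest member, at 75 to 143 counts per HFD library. It ranged from 7.93 to 10.4 CPM in the WT group and from 9.36 to 11.4 CPM in the N-LKO group (0.19, adjusted p 0.425). Mttp lies on chromosome 3 from 138089854 to 138144968 (minus strand, 18 exons) and Tm6sf2 on chromosome 8 from 70072924 to 70080066 (plus strand, 10 exons).

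Cideb is a lipid droplet and ER protein that promotes lipidation of VLDL; Sar1b is the GTPase that starts COPII coat assembly, and Surf4 a cargo receptor that draws lipoproteins into these carriers. None of them passed under HFD, and their groups overlapped. Cideb ranged from 147 to 168 CPM in the WT group and from 166 to 183 CPM in the N-LKO group (0.14, 95% interval −0.03 to 0.30). Sar1b ranged from 123 to 174.8 and from 96.3 to 157 CPM in the same groups (−0.21, interval −0.53 to 0.11). Surf4 stood at 159 CPM in WT replicate 1 and at 208 to 212 CPM in WT replicates 2 to 4, against 165 to 197 CPM in the N-LKO group (−0.12, interval −0.35 to 0.11). Cideb lies on chromosome 14 from 55754050 to 55758458 (minus strand, 5 exons), Sar1b on chromosome 11 from 51763687 to 51791925 (plus strand, 7 exons) and Surf4 on chromosome 2 from 26920040 to 26933928 (minus strand, 6 exons).

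Apoa1, Apoc3 and Apoa4 lie next to each other on chromosome 9, within 14880 bases. Apoa1, the main protein of high-density lipoprotein, runs from 46228580 to 46230466 (plus strand, 4 exons). Apoc3, which slows the hydrolysis and clearance of triglyceride-rich particles, runs from 46232933 to 46235636 on the minus strand (4 exons), 2466 bases beyond Apoa1. Apoa4, a lipid-binding apolipoprotein that rises in fatty liver and promotes formation of large triglyceride-rich particles, runs from 46240696 to 46243459 on the plus strand (3 exons), 5059 bases beyond Apoc3. All 3 had positive log2 fold changes under HFD, and none passed the adjusted test.

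Apoa4 had the largest fold change of the members under HFD. It stood at 1428, 625, 565 and 972 CPM in the WT group and at 2606, 1133, 1857 and 1839 CPM in the N-LKO group. WT replicate 1 and N-LKO replicate 2 lay nearest to the other group, and the groups overlapped by these 2 libraries. The log2 fold change of 1.05 (SE 0.30, 95% interval 0.40 to 1.70) missed the threshold with an adjusted p of 0.0652 by edgeR. Without WT replicate 1 Apoa4 passed at 1.36 (adjusted p 0.0218), and likewise without N-LKO replicate 2 at 1.23 (adjusted p 0.0379). It passed with no other single library left out (adjusted p 0.113 to 0.164 by edgeR). The offset brought Apoa4 to 0.97 (adjusted p 0.128 by edgeR), and the DESeq2 test did not call it (adjusted p 0.0761).

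Apoc3 stood at 601, 523, 702 and 706 CPM in the WT group and at 896, 903, 732 and 744 CPM in the N-LKO group. The groups did not overlap, although N-LKO replicates 3 and 4 lay close to WT replicates 3 and 4. Its log2 fold change was 0.37 (SE 0.12) with an adjusted p of 0.0941 by edgeR; the DESeq2 test called it (adjusted p 0.0367), and the offset brought it to 0.13. Apoa1 ranged from 4779 to 6311 CPM in the WT group and from 5757 to 8481 CPM in the N-LKO group (0.27, interval −0.04 to 0.57, adjusted p 0.281 by edgeR).

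Apoe, the ligand through which remnant particles are taken up by the liver, was the most abundant member per kilobase, and in CPM under HFD only. It lies on chromosome 7 from 19696109 to 19699188 on the minus strand, with 4 exons. Under HFD it ranged from 14959 to 16579 CPM in the WT group and from 16665 to 17896 CPM in the N-LKO group, apart by a narrow margin, with a log2 fold change of 0.13 (SE 0.099, adjusted p 0.478 by edgeR).

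Single cell-type markers differed with genotype under HFD, while the summed levels of most marker lists overlapped between the genotypes. Of 8 enterocyte markers only Fabp2 was listed, and it was higher in N-LKO livers (151 to 174 CPM against 119 to 132 CPM, log2 fold change 0.37, adjusted p 0.0242 by edgeR); Vil1, Cdh17, Krt20, Lct, Sis, Alpi and Cdx2 were at 0 or not listed. Fabp2 had counts in every liver library. The 10 macrophage markers, whose cells also make Apoe, summed to 137 to 198 CPM in the WT group and 92.7 to 171 CPM in the N-LKO group, and 2 of 9 tested were lower (Clec4f and Timd4). Cholangiocyte markers summed to 20.5 to 38.4 and 54.5 to 99.6 CPM, most of it from Spp1 (21.3 ± 9.13 against 62.4 ± 18.8 CPM, SD, n = 4, called as higher). In the same groups, stellate cell markers summed to 60.8 to 137 and 98.1 to 153 CPM, endothelial markers to 106 to 130 and 76.8 to 112 CPM and lymphocyte markers to 1.53 to 2.67 and 2.40 to 3.96 CPM. Of 6 endothelial markers tested, 5 had negative log2 fold changes and Stab2 was called as lower (−0.61, adjusted p 0.0355 by edgeR). Of 7 stellate cell markers tested, 5 were positive and 2 negative (median 0.91), with 0 called. An unadjusted p under 0.05 was found for 4 endothelial and 6 stellate cell markers, against 22.7% of all genes. Hepatocyte markers summed to 79830 to 90446 CPM and to 69777 to 91171 CPM, and 0 of 10 passed. The part of these levels in the results above was not tested.

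Under WD the same contrast of N-LKO with WT liver gave no call among the members. By edgeR 0 of 10 members passed, where 0.0% of 17829 genes did (lowest adjusted p of any gene 0.1503). Nus1, the deleted gene, did not pass here either (−1.02, adjusted p 0.151 by edgeR), although its groups were apart. When only the 2 liver groups were fitted, Nus1 passed (adjusted p 0.0307 by edgeR) and no member did. At an unadjusted p under 0.05 there were 0 members, against 12.4% of genes, and the DESeq2 test and limma-voom also called 0 of 10. The log2 fold change was negative for 9 members and positive for Apoa4; the median was −0.32, beside 0.01 over all genes tested. For 5 members, Sar1b, Cideb, Surf4, Apoc3 and Apoe, all N-LKO livers lay below all WT livers, against 13.6% of genes.

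**Figure D3:**
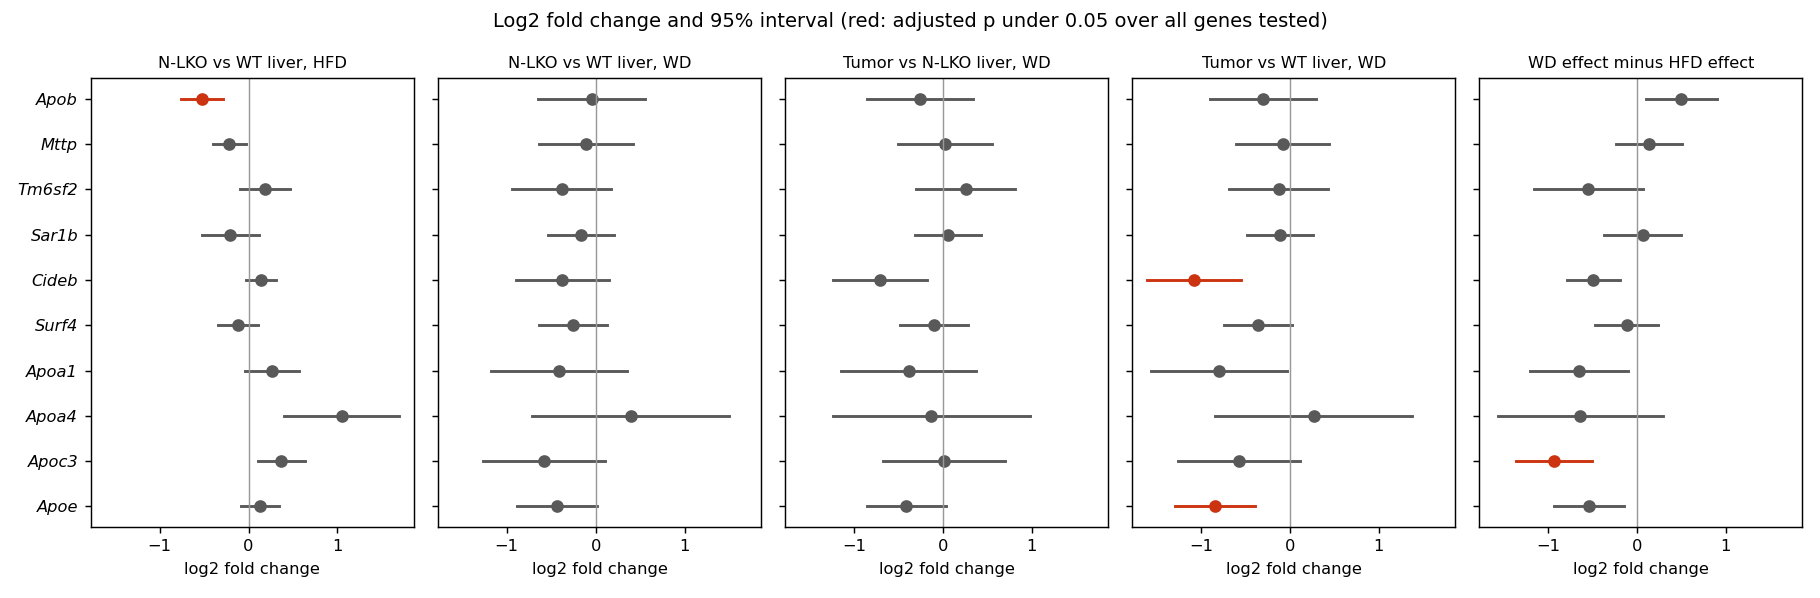
Log2 fold change (points) with 95% interval (lines) of the 10 genes in the 4 comparisons and in the difference between the diets, from edgeR; red marks an adjusted p under 0.05 over all genes tested. Apob under HFD, Cideb and Apoe in tumors against WT livers, and Apoc3 in the difference between diets are red.

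Apob itself stood at 23040, 27823 and 22767 CPM in the 3 WT livers and at 23482, 23963 and 23874 CPM in the 3 N-LKO livers under WD. The N-LKO livers lay inside the WT range. The log2 fold change was −0.05 (95% interval −0.64 to 0.55), and this interval holds the −0.52 measured for Apob under HFD. Without WT replicate 2, the highest library, Apob stood at 0.05.

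Apoe and Apoc3 had the lowest unadjusted p-values among the members under WD. Apoe stood at 17811, 17201 and 15220 CPM in the WT group and at 12737, 10978 and 13446 CPM in the N-LKO group. The 2 groups were apart, at a log2 fold change of −0.43 (SE 0.20, interval −0.88 to 0.01, adjusted p 0.415 by edgeR). Apoc3 stood at 579, 588 and 445 CPM in the WT group and at 404, 310 and 361 CPM in the N-LKO group. Its groups were also apart, and the log2 fold change was −0.58 (SE 0.31, interval −1.27 to 0.10, adjusted p 0.459 by edgeR).

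Cideb stood at 158, 203 and 141 CPM in the WT group and at 127, 128.02 and 131 CPM in the N-LKO group under WD. WT replicate 2 was the highest library, and without it the log2 fold change of Cideb was −0.22 in place of −0.37. Sar1b (109.5 to 114.3 against 94.7 to 107 CPM, −0.17) and Surf4 (207 to 273 against 182 to 204 CPM, −0.26) lay lower by small margins. Mttp, at 372 to 522 CPM in the WT group and 367 to 471 CPM in the N-LKO group, had a log2 fold change of −0.11, and turned to 0.05 without WT replicate 2. Tm6sf2 ranged from 6.93 to 16.0 CPM in the WT group and from 8.45 to 8.56 CPM in the N-LKO group (−0.38), and stood at −0.03 without WT replicate 2.

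Apoa4 stood at 2213, 1490 and 2627 CPM in the WT group and at 2557, 3085 and 2678 CPM in the N-LKO group under WD. The groups overlapped by the lowest N-LKO liver, and the log2 fold change was 0.39 (interval −0.72 to 1.504). Apoa1 stood at 4042, 7025 and 4938 CPM in the WT group and 4136, 3636 and 4268 CPM in the N-LKO group (−0.41, interval −1.18 to 0.35); without WT replicate 2 it was −0.16.

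Hepatocyte markers also lay lower in N-LKO livers under WD. Their sum was 62762 to 79763 CPM in the WT group and 44608 to 56268 CPM in the N-LKO group, and 10 of 10 had negative log2 fold changes (median −0.49), with 0 called. Cholangiocyte markers summed to 17.2 to 69.6 CPM in the WT group and to 115 to 151 CPM in the N-LKO group, and macrophage markers to 591 to 951 and 670 to 767 CPM. Spp1 made up most of the cholangiocyte sum (43.9 ± 29.1 against 122 ± 18.8 CPM, SD, n = 3), while Krt19, Krt7 and Epcam had means of 0.756, 0.845 and 2.43 CPM in the N-LKO group. Stellate cell markers summed to 302 to 676 and 600 to 812 CPM, endothelial markers to 285 to 309 and 251 to 299 CPM and lymphocyte markers to 1.90 to 4.00 and 3.87 to 6.06 CPM, and Sis, Alpi and Cdx2 of the enterocyte markers were at 0 or not listed. The part of these shifts in the members' lower values was not tested.

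An interaction term, fitted over 14 livers, asked whether the genotype effect differed with diet. By edgeR 1 of 10 members passed, Apoc3, where 1.62% of 15850 genes did. Against 20% of genes, 5 members had an unadjusted p under 0.05: Apob, Cideb, Apoa1, Apoc3 and Apoe. The median of the members was −0.51, beside 0.0048 over all genes. The genotype effect on Apoc3 was 0.37 under HFD and −0.58 under WD, neither of which passed by itself, and the difference was −0.93 on the log2 scale (SE 0.20, 95% interval −1.36 to −0.50, adjusted p 0.0332). The other 4 did not pass by edgeR. Apob had the opposite sign (0.50, SE 0.19, adjusted p 0.153), and ran from 0.13 to 0.53 over the alternatives that kept all libraries. Apoe (−0.54, adjusted p 0.123), Cideb (−0.49, adjusted p 0.0800) and Apoa1 (−0.65, adjusted p 0.178) had the sign of Apoc3. The DESeq2 test called 4 members, Apob, Cideb, Apoc3 and Apoe.

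The call for Apoc3 in the interaction was lost with the offset (−0.59, adjusted p 0.164) and when certain single libraries were dropped. These were replicates 1 and 2 of both HFD groups and of the WT WD livers and all 3 N-LKO WD livers, 9 of 14 livers, with adjusted p of 0.05045 to 0.0876 when each was dropped. The bin of the shortest transcripts, to which Apoc3 belongs, had a median of −0.31 in this contrast and the bin of the longest, with Apob, 0.24.

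Tumors were then set against the N-LKO livers of the same diet, the closest match in genotype. All 3 WD comparisons share libraries, so they are not independent. By edgeR 0 of 10 members passed, where 0.499% of 17829 genes did; 1 member, Cideb, had an unadjusted p under 0.05, against 18.3% of genes, and the DESeq2 test and limma-voom called 0 of 10. The median log2 fold change was −0.12, beside 0.02 over all genes. Groups were apart for 3 members (Cideb and Apoe lower, Tm6sf2 higher in tumors), against 23.1% of genes.

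Cideb stood at 93.1, 49.4 and 94.9 CPM in the 3 tumors. All were below the lowest liver of either genotype, at a log2 fold change of −0.70 against N-LKO livers (SE 0.24, interval −1.23 to −0.18, adjusted p 0.167 by edgeR). Apoe stood at 9589, 8185 and 10229 CPM in tumors, again below every liver (−0.41 against N-LKO livers, SE 0.20, adjusted p 0.317 by edgeR). Tm6sf2 ranged from 9.85 to 10.3 CPM in tumors (0.26, interval −0.30 to 0.82).

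Tumor replicate 2 held the lowest value of the 9 WD libraries for 8 members, all but Tm6sf2 and Surf4. Apob stood at 25581, 12913 and 21211 CPM in the tumors, Apoa1 at 3565, 1532 and 4124 CPM, Apoa4 at 3519, 643 and 3451 CPM and Apoc3 at 397, 184 and 505 CPM. In each case replicates 1 and 3 lay within or above the range of the N-LKO livers, or just below it for Apoa1 replicate 1 and Apob replicate 3, and replicate 2 far below it. The log2 fold changes against N-LKO livers were −0.26 for Apob, −0.38 for Apoa1, −0.13 for Apoa4 and 0.01 for Apoc3, and without replicate 2 they were −0.03, −0.07, 0.32 and 0.32, with no call either way. Summed enterocyte markers were 218 CPM in tumor replicate 2 and 115 and 71.7 CPM in tumor replicates 1 and 3. This sum is not a level of the whole list: Vil1 was at 58.4 ± 98.9 CPM in tumors (SD, n = 3) and at 0.386 CPM on average in N-LKO livers, while Fabp2 was lower on average in tumors (70.7 ± 29.5 CPM) than in N-LKO livers (115 ± 6.76 CPM). The hepatocyte markers of tumor replicate 2, at 50097 CPM, were the lowest of the tumors (59670 and 81366 CPM in replicates 1 and 3). Sar1b was lowest in tumor replicate 2 too (78.2 CPM, against 107 and 125.6 CPM), while Surf4 was highest there (216 CPM, against 151 and 172 CPM). Mttp stood at 333, 332 and 562 CPM, with replicate 3 above every liver.

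Against WT livers, tumors were lower in Cideb and Apoe. By edgeR 2 of 10 members passed, both lower, where 14.9% of 17829 genes passed and 6.8% passed as lower. With Apoa1, 3 members had an unadjusted p under 0.05, against 32.5% of genes, and 9 of the 10 log2 fold changes were negative, with a median of −0.33, beside 0.04 over all genes. Groups were apart for the same 2 members, against 34.1% of genes. The share of members called thus lay near that of all genes called in either direction and above that called as lower. It rests on 2 genes.

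Cideb was at 79.1 ± 25.8 CPM (SD, n = 3) in tumors and 167 ± 31.9 CPM (n = 3) in WT livers, a log2 fold change of −1.08 (SE 0.24, 95% interval −1.61 to −0.55, adjusted p 0.0198 by edgeR). The call was lost without WT replicate 2 (−0.92, adjusted p 0.0730) and when only these 2 groups were fitted (−1.10, adjusted p 0.0588). Its counts were fractional in all libraries.

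Apoe was at 9335 ± 1046 CPM (SD, n = 3) in tumors and 16744 ± 1355 CPM (n = 3) in WT livers, with the N-LKO livers between them at 12387 ± 1271 CPM (n = 3). The log2 fold change of tumors against WT livers was −0.84 (SE 0.20, interval −1.29 to −0.39, adjusted p 0.0248 by edgeR). It did not pass without tumor replicate 2 (−0.79, adjusted p 0.0510), without WT replicate 1 or 2 (adjusted p 0.0677 and 0.0593), or when only the 2 groups were fitted (adjusted p 0.0765). Macrophage markers, of cells that also make Apoe, summed to 459 to 813 CPM in tumors and 591 to 951 CPM in WT livers, and hepatocyte markers to 50097 to 81366 and 62762 to 79763 CPM; their part was not tested. Of the markers tested in this comparison, 3 of 10 hepatocyte genes were lower (Ttr, Tat and Pck1), macrophage genes gave 1 higher and 2 lower of 10, stellate cell genes 1 lower of 8, endothelial genes 2 higher and 1 lower of 6, cholangiocyte genes 2 higher of 5, enterocyte genes 2 higher (Vil1 and Krt20) and 1 lower (Fabp2) of 3, and lymphocyte genes 0 of 5.

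The other members did not pass in tumors against WT livers. Apoa1 had a log2 fold change of −0.80 (interval −1.56 to −0.03, adjusted p 0.141 by edgeR), Apoc3 of −0.57 (interval −1.26 to 0.12) and Apoa4 of 0.27 (interval −0.84 to 1.38). Apob stood at −0.30 (interval −0.90 to 0.30) and Surf4 at −0.36 (interval −0.74 to 0.02). Mttp, Tm6sf2 and Sar1b lay at −0.08, −0.12 and −0.11.

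A further 5 lists, chosen with earlier results of these data known, place the members among other genes of the route. Of all genes tested under HFD, 4.84% passed by edgeR and 2.29% passed as lower. Under HFD, 2 of 11 other apolipoprotein genes passed: Apoc2, the activator of lipoprotein lipase, was higher (0.82, adjusted p 0.00833 by edgeR) and A1cf, a cofactor of the enzyme that edits Apob mRNA, lower (−0.79, adjusted p 0.00947). Of 16 lipid loading genes the carboxylesterase gene Ces3b was lower (−0.85), and of 21 genes of ER export Sec16a (−0.34) and Lman1 (−0.42) were lower; Sec16a organizes ER exit sites and Lman1 is a cargo receptor for glycoproteins. Of 13 genes of uptake and plasma remodelling, the phospholipid transfer protein Pltp was higher (0.60) and the cholesterol efflux transporter Abca1 lower (−0.42). The medians of these 4 lists, in this order, and of a list of 17 transcriptional regulators were 0.09, −0.07, −0.11, −0.11 and −0.17, beside −0.0058 over all genes. Apoc2, A1cf and Ces3b passed in 16 of 16 alternatives, Lman1 and Abca1 in 12, Pltp in 9 and Sec16a in 7.

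Under WD none of these genes passed in N-LKO against WT livers by edgeR, and the medians of the same lists were −0.51, −0.25, −0.10, −0.46 and −0.32, beside 0.01 over all genes. At an unadjusted p under 0.05 there were 5, 4, 0, 5 and 6 genes of the 5 lists, against 12.4% of all genes. The lists held 11, 16, 21, 13 and 17 tested genes in this order. Hnf4a, a regulator of many liver genes, stood at 889 ± 204 CPM in the WT group and 580 ± 42.8 CPM in the N-LKO group (−0.62, adjusted p 0.353). Tumors against N-LKO livers likewise gave 0 calls in these lists, where 0.499% of all genes passed by edgeR. In that comparison 3, 4, 6, 3 and 1 genes had an unadjusted p under 0.05, against 18.3% of all genes.

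**Figure D4:**
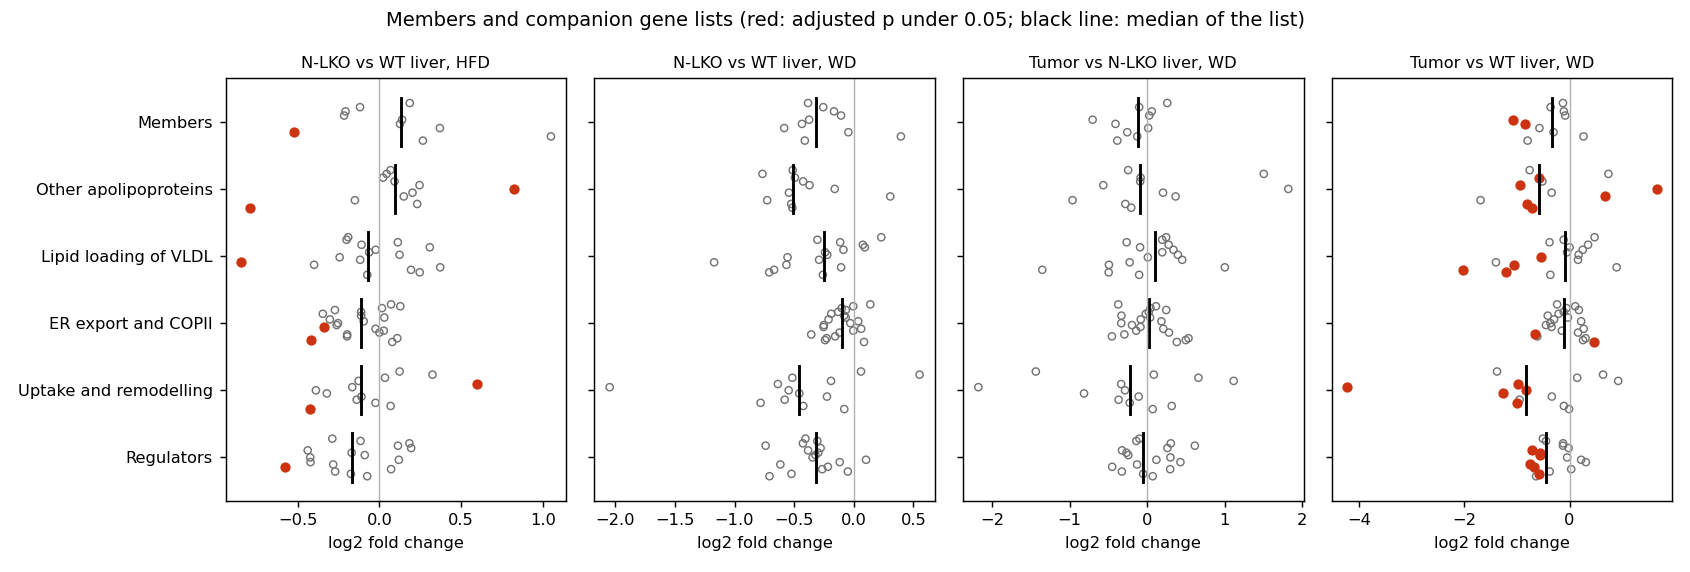
Log2 fold change (horizontal axis, whose range differs between panels) of each gene in the members and in 5 lists of related genes in the 4 comparisons; red points have an adjusted p under 0.05 over all genes tested, open points do not, and black lines are list medians. Under WD the medians of N-LKO against WT liver lie between −0.51 and −0.10 with no red point. Red points are most frequent in tumors against WT livers, where 14.9% of all genes tested passed.

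In tumors against WT livers the calls in the lists were mostly lower. Of all genes tested in this comparison, 14.9% passed by edgeR and 6.8% passed as lower. Other apolipoproteins gave 2 higher and 4 lower of 11: Apoc2 (1.66) and the editing enzyme gene Apobec1 (0.67) were higher, and Apoa2 (−0.81), Apoc4 (−0.94), Apoh (−0.58) and A1cf (−0.72) lower. In the lipid loading list 4 of 16 were lower, Dgat2 (−0.55), which makes triglyceride, and the carboxylesterase genes Ces1d (−1.21), Ces1e (−2.02) and Ces3a (−1.06). Of the 21 genes of ER export, Kif5b was higher (0.47) and Mia3, a receptor for large cargo at ER exit sites, lower (−0.65). In the list of uptake and remodelling, Lipc (−1.27), Lcat (−1.01), Pltp (−0.97) and Lrp1 (−0.83) were lower. Among the regulators, Hnf4a (−0.75), Ppara (−0.71), Creb3l3 (−0.57), Nr1h3 (−0.56) and Nr1h4 (−0.56) were lower. In the interaction 1 gene of the 5 lists passed, Apoa2 (−0.74, adjusted p 0.0455 by edgeR), where 1.62% of all genes tested did. Of the tumor calls named here, Apoc4, Ces1d, Ces1e and Ces3a passed in 18 of 18 alternatives and the others in 6 to 16, and Apoa2 passed in 6 of 22 in the interaction. Carboxylesterase genes share reads among near-identical copies and are uncertain.

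Genes whose pattern over libraries was most like that of Apob or Apoa4 were found by the smallest root mean square difference of centred log2 CPM, among genes with a mean of at least 10 CPM. Over the 8 HFD libraries the 5 nearest to Apob of 7312 genes were Apc, Lman1, Slc22a30, Slc17a3 and Usp32, with differences of 0.038 to 0.079, where Apob itself varied by 0.28 around its own mean. Their main transcripts have 12811, 4676, 2255, 4336 and 7053 bases in this order, beside 13934 for Apob. The part of transcript length in this likeness was not tested. Lman1 is also among the export genes that passed the test above, and Mttp ranked 434 with 0.17. The nearest to Apoa4 were H2-Q1, Lgals1, Cyp2a22, Anxa2 and Ifi27l2b (0.17 to 0.34, where Apoa4 varied by 0.73). Over the 9 WD libraries the nearest to Apob of 8558 genes were Vti1b, Ccdc124, Nkiras1, Rpl4 and Rpsa-ps10 (0.071 to 0.088), and those nearest to Apoa4 were Dglucy, Elovl5, Sesn3, Zbtb10 and Acox2 (0.38 to 0.41). No gene was among the 5 nearest to the same member in both tables.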

How the data were processed

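Groups and replicate numbers came from the sample titles. The authors depleted ribosomal RNA, sequenced single-end reads and deposited estimated counts per gene, which need not be whole because reads were divided between features. The processing notes name STAR, Partek and genome build mm9, while the methods name TopHat2; gene positions in the tables matched GRCm38 (GENCODE M21). The authors' own differential test was not used here. All columns of per-sample values were assigned (0 left over).

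Rounded estimated counts went into edgeR 4.0.16 under R 4.3.3, with TMM scaling, filterByExpr and quasi-likelihood tests (Benjamini-Hochberg adjustment over all genes tested, threshold 0.05), HFD livers alone, the 3 WD groups in 1 fit, and the 14 livers for the interaction. CPM used TMM-scaled library sizes. The main transcript of a gene was its annotated principal form or else the longest basic one. The approximate SE was taken as the log2 fold change over the root of F. Alternatives were DESeq2 1.42.0, limma-voom (limma 3.58.1), other scalings and filters, a replicate block, an offset for length and GC content (mgcv 1.9.3), only the groups compared, and each library left out. The edgeR procedure was tested on simulated data. Within groups no 2 libraries matched within sampling noise (chi-square per degree of freedom 8.0 to 103.6 over 21 pairs).

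The members, the 5 companion lists, the 7 marker lists and the naming rule (all members, list genes that passed or had the 2 largest changes of a list, the 5 nearest genes) were chosen with earlier results of these data known. P-values measure only the spread between these libraries. Some genes of these lists are not reported here.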

Additional observations from a re-analysis of the deposited data

Results flagged for a closer look

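In a group of 4 libraries, Surf4 in WT HFD replicate 1 (159 CPM) lay farther from WT replicates 2 to 4 (208 to 212 CPM) than Dixon's 95% limit allows (ratio of gap to range 0.93). Of 20 groups of member values tested this way this was the only one past the limit, and chance gives about 1 in 20. Without this library the log2 fold change of Surf4 under HFD was −0.21 (edgeR adjusted p 0.188) in place of −0.12.

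The genotype effect on Apoc3 differed between the diets: by the interaction over 14 livers it was lower under WD than under HFD by a log2 difference of −0.93 (SE 0.20, edgeR adjusted p 0.0332). Effects were 0.37 under HFD and −0.58 under WD, and neither passed on its own. Over the alternatives the adjusted p ran from 0.000730 to 0.164, and diet cannot be told apart from table.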

How the results depend on the processing

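The replicate numbers did not pair the samples: correlations of deviations between same-numbered libraries ran from −0.086 to 0.139 for HFD livers (4 pairs), 0.091 to 0.101 for WT and N-LKO WD livers, −0.163 to 0.019 for WT livers and tumors and 0.018 to 0.136 for N-LKO livers and tumors (3 pairs each). With the replicate block the members called were 2 under HFD (Apob and Apoa4, the latter at 1.09, adjusted p 0.0213), 1 in tumors against WT livers (Apoe lost at adjusted p 0.0505) and 0 in the interaction (Apoc3 at adjusted p 0.0540); it left 36 genes of 89 in tumors against N-LKO livers.

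Members called under HFD were 2 with DESeq2 and 0 with the length and GC offset; in tumors against WT livers 0 when only these groups were fitted; in the interaction 4 with DESeq2 and 0 with the offset. Over fits that left out 1 library they ran from 0 to 2 in each of these comparisons. Genes called under HFD (652) were 999 with DESeq2, 229 with the offset and 179 (without WT replicate 2) to 597 with 1 library left out. For N-LKO against WT livers under WD (0) they were 99 with DESeq2, 6 with only these groups and 0 to 1 with 1 library left out. For tumors against N-LKO livers (89) they were 58 at a mean of 1 CPM, 1021 with DESeq2, 18 with limma-voom, 29 with only these groups and 3 (without N-LKO replicate 2) to 2193 (without tumor replicate 1) with 1 library left out. For tumors against WT livers (2653) they were 705 with only these groups and 569 (without WT replicate 2) to 3819 (without tumor replicate 1) with 1 library left out, and for the interaction (257) 923 with DESeq2, 1 with the offset and 22 (without N-LKO WD replicate 3) to 330 (without WT WD replicate 3). The cause of these shifts was not tested.

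Signs turned for some small log2 fold changes. Under upper-quartile scaling, Apob (0.014) and Dhdds (0.029), which encodes the partner of NgBR, turned positive in N-LKO against WT livers under WD. In tumors against N-LKO livers limma-voom gave −0.0059 for Mttp and −0.092 for Apoc3, and Apoc3 was −0.039 with the block and −0.034 with the offset. Against WT livers limma-voom gave −0.034 for Apoa4, and in the interaction the offset gave −0.086 for Mttp. Leaving out 1 library at a time, the values that crossed 0 ran as follows. Under WD, N-LKO against WT livers, they were Apob from −0.10 to 0.051, Mttp from −0.24 to 0.047 and Dhdds from −0.11 to 0.065. For tumors against N-LKO livers they were Mttp from −0.27 to 0.15, Sar1b from −0.10 to 0.22, Surf4 from −0.27 to 0.0081, Apoa4 from −0.44 to 0.32 and Apoc3 from −0.30 to 0.32, and against WT livers Mttp from −0.38 to 0.073, Tm6sf2 from −0.38 to 0.23, Sar1b from −0.27 to 0.027 and Apoa4 from −0.046 to 0.69. In the interaction they were Sar1b from −0.057 to 0.17, Surf4 from −0.18 to 0.0039 and Dhdds from −0.16 to 0.013. Of the single-gene values under alternatives, 1036 kept direction and side of the threshold, 12 gained a call, 24 lost one and 32 turned sign. A difference in Apob of the size measured under HFD lay within the interval under WD. That interval rests on 3 libraries a group and on a spread estimated with the tumors included.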
